A study of Mus musculus with 24 samples.

Results

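Matrix metalloproteinases (Mmp genes) and their tissue inhibitors (Timp genes) were followed across 24 mouse heart libraries. The members were the 10 genes Timp1, Timp2, Timp3, Timp4, Mmp2, Mmp3, Mmp9, Mmp14, Mmp15 and Mmp23, found by matching the Ensembl identifiers of the count table to these symbols. All 10 were present among 43432 gene rows. The hearts came from mice of the strain C57BL/6 and fell into 6 groups of 4 libraries: Sedentary, Running (exercise for 8 weeks), TAC-LVH (2 weeks after TAC, transverse aortic constriction, in which a ligature narrows the aorta and the left ventricle pumps against a higher pressure), Sham-LVH (its sham controls), TAC-HF (8 weeks after TAC) and Sham-HF (its sham controls). No genetic alteration is named for any group, and sex, age, the time after sham surgery and any pooling of animals are not given in the labels. Where libraries of a group were not taken from separate animals, the p-values measure only the spread between these samples.

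Matrix metalloproteinases are zinc-dependent enzymes that cut collagens, laminins and other proteins of the extracellular matrix. Most are made as inactive precursors that are secreted or held at the cell surface, and their inhibitors bind the active site of the mature enzyme. In the heart this system takes part in the turnover of the collagen network around the muscle cells. Transcript levels, as measured here, do not report enzyme activity.

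Total counts per library ranged from 16802939 to 39512101 (median 22845050), and the 10 genes together received 3111 to 12026 counts in a library. Mitochondrially encoded transcripts held 50.7% to 73.6% of the counts, with a lower share after TAC (TAC-LVH 50.7% to 58.4% against Sham-LVH 59.8% to 64.5%, and TAC-HF 52.7% to 57.6% against Sham-HF 61.3% to 67.0%). Cardiomyocyte markers were abundant in all libraries, with 9 genes such as Myh6 and Tnnt2 summing to 12645 to 25807 CPM. Levels are given as CPM, the count relative to the library total, with totals corrected for composition by TMM over the 24 libraries. The threshold for a call was an adjusted p of 0.05 (edgeR's quasi-likelihood test with Benjamini-Hochberg adjustment over all genes tested in that comparison), and only called genes are said to have risen or fallen.

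After TAC, 5 of the 10 transcripts were higher at both times. Timp1, Timp2, Mmp2, Mmp14 and Mmp23 rose 2 and 8 weeks after TAC, Mmp15 fell at 8 weeks, and no member was called after running. In the running comparison 0 of all 13824 genes tested were called, so the absence of calls is not particular to these members. Of the 9 members with enough counts to be tested at 2 weeks, 5 were called higher and 0 lower, where 33.2% of the 14224 genes tested were called in either direction (17.1% higher, 16.1% lower). At 8 weeks 5 of 9 were called higher and 1 lower, where 29.6% of 13621 genes were called (14.9% higher, 14.7% lower). Mmp9 was too low to be tested in both TAC comparisons. At 2 weeks 5 members were higher without overlap between TAC and sham libraries, and 0 lower. Of all genes tested, 16.5% were higher and 16.3% lower without overlap. At 8 weeks 4 members were higher and 1 lower without overlap, beside 14.9% and 14.6% of all genes tested. The median log2 fold change of the tested members was 0.70 at 2 weeks and 0.50 at 8 weeks, beside medians of -0.0021 and 0.0035 over all genes tested. With mitochondrial genes left out of the counts these 11 calls were kept, with Mmp2 at 2.01 and 1.238 and Mmp15 at -0.75 at 8 weeks. The 2-week value of Mmp15, -0.37 in that fit, was not among the calls. In whole-heart RNA, more cells of a type and more RNA per cell cannot be told apart.

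**Figure D1:**
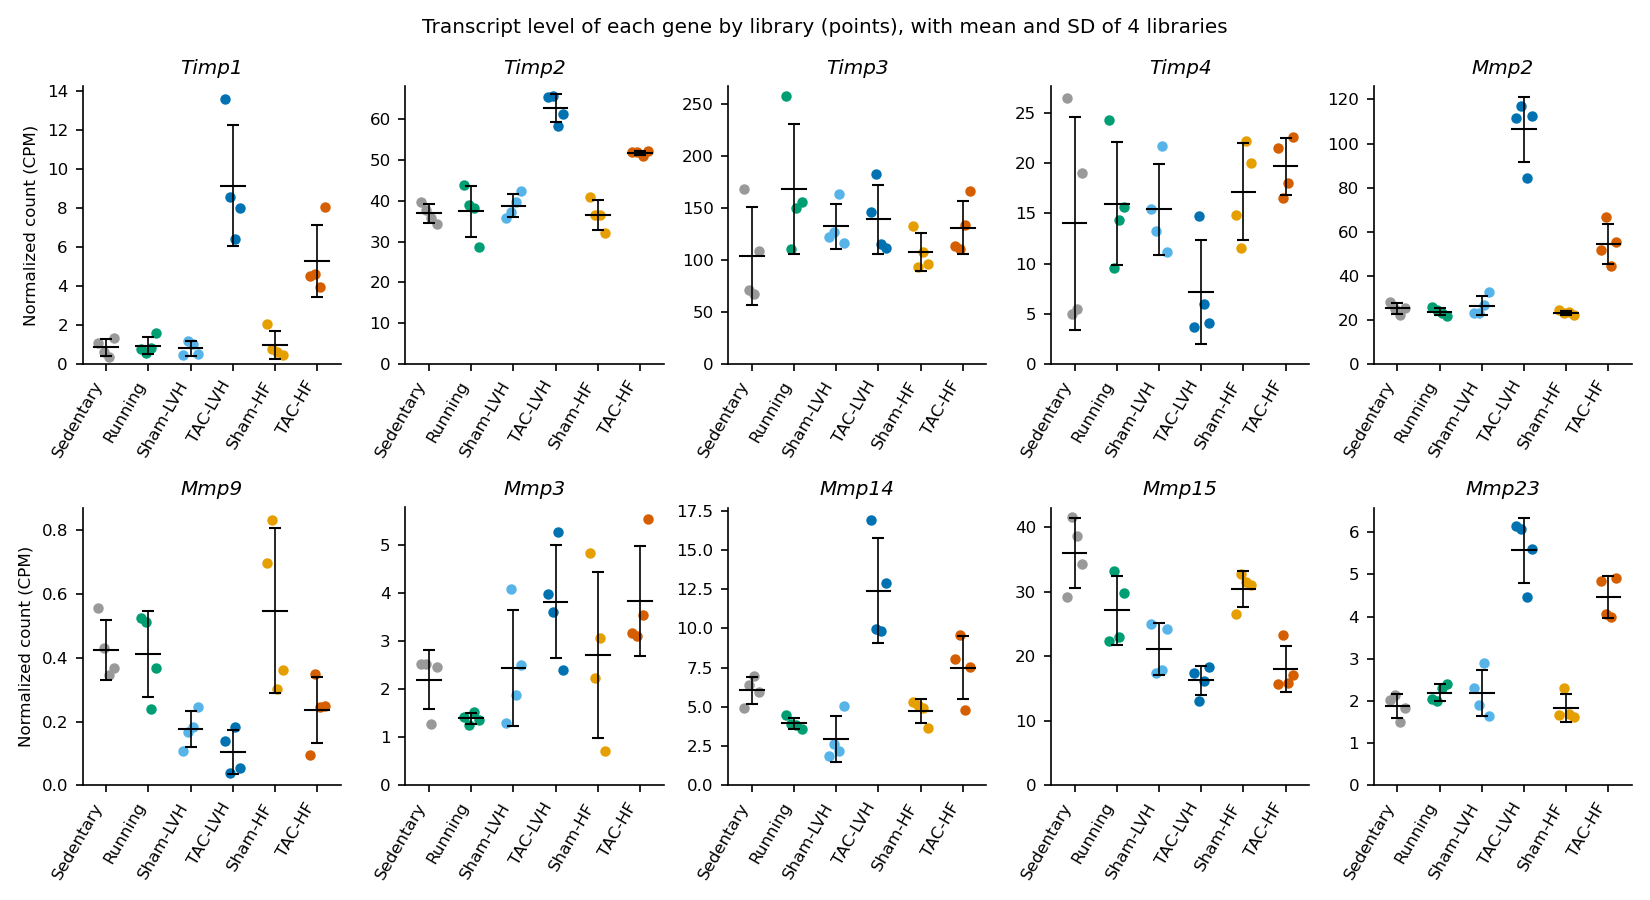
Level of each gene (CPM, vertical axis from 0) in the 4 libraries of each group (points, replicates 1 to 4 from left), with the mean (line) and SD (bar). Mmp2 stands at 84.6 to 117 CPM in TAC-LVH and 44.5 to 66.5 in TAC-HF, and at 21.8 to 32.7 in the 4 control and running groups.

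The stretch of 250 bases before the annotated start of transcription is printed for 4 members, because these genes cover the directions seen: Timp1 and Mmp14, which rose, Mmp15, which fell at 8 weeks, and Mmp3, which was not called. The sequences are from RefSeq (build GRCm38.p6), 5′ to 3′ on the strand of the gene, all on the plus strand: chrX:20869916-20870165 for Timp1, chr14:54431348-54431597 for Mmp14, chr8:95352046-95352295 for Mmp15 and chr9:7445572-7445821 for Mmp3. Capitals mark matches, on either strand, to 4 motifs: AP-1 (TGANTCA), PEA3 (AGGAAG, bound by ETS factors), the GC box (GGGCGG) and the TATA box (TATAAA).
Timp1: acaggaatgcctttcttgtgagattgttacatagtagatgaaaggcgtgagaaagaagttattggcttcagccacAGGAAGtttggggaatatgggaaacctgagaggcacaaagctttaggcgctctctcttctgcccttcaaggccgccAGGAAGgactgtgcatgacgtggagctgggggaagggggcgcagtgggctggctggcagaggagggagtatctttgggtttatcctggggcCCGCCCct
Mmp14: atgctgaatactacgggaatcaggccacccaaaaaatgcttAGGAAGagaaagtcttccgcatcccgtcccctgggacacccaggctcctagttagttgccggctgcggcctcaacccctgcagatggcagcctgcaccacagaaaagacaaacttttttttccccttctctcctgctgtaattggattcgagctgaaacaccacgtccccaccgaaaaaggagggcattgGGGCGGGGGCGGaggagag
Mmp15: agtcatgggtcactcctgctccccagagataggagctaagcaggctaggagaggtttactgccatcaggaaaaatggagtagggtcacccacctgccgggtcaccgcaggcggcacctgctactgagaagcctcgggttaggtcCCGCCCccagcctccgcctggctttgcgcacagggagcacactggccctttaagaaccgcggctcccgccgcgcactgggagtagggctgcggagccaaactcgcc
Mmp3: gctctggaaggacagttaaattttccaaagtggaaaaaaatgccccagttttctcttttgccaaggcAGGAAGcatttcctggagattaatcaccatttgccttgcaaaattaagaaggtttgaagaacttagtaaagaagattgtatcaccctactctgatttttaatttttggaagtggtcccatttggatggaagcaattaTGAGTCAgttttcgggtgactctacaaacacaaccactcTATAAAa

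Windows were found for 8 members, the 4 Timp genes, Mmp3, Mmp14, Mmp15 and Mmp23, and no marked sites overlapped. The AP-1 letters occurred in the Mmp3 window alone, as TGAGTCA starting 46 bases before the start, against 6.75% of 32851 windows of the same length. The TATA letters were also in the Mmp3 window alone, with their first base only 7 bases before the annotated start (12.4% of all windows). PEA3 letters were in the windows of Timp1 (2 matches), Timp3, Timp4, Mmp3 and Mmp14, against 29.5% of windows. GC box letters were in those of Timp1, Timp2, Timp3, Mmp14 (2 matches) and Mmp15, against 32.7%, and Mmp23 held none of the 4 motifs. The only one of the 4 motifs in the Mmp15 window, the GC box, also stood in the windows of Timp1, Timp2 and Mmp14, and a match is a description of letters, not of binding.

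Of the 4 inhibitors, Timp1 showed the largest fold change. Timp1 is a secreted inhibitor with low expression in the healthy heart. It was at 0.467, 1.175, 1.03 and 0.493 CPM in the Sham-LVH libraries (replicates 1 to 4) and at 13.6, 8.57, 6.40 and 7.98 in TAC-LVH. Every TAC-LVH library was thus above every sham library, and the fold change was 12.0 (log2 3.58 ± 0.31 SE, adjusted p = 1.5e-05). At 8 weeks the Sham-HF libraries held 2.05, 0.743, 0.601 and 0.480 CPM and the TAC-HF libraries 4.52, 4.61, 3.95 and 8.03. The groups again did not overlap, with a 5.33-fold rise (log2 2.41 ± 0.41 SE, adjusted p = 0.0028). The highest library of each of these 2 groups stood apart from the other 3. Sedentary hearts held 0.346 to 1.35 CPM and Running hearts 0.552 to 1.57, overlapping ranges with a log2 difference of 0.12 (95% interval -0.76 to 1.00).

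Timp2 rose less and with little spread. Besides inhibiting, Timp2 takes part in the activation of the Mmp2 precursor by Mmp14 at the cell surface. It was at 35.9, 37.2, 39.8 and 42.4 CPM in Sham-LVH and at 65.5, 65.8, 58.5 and 61.4 in TAC-LVH, groups that did not overlap (1.62-fold, log2 0.70 ± 0.09 SE, adjusted p = 6.6e-05). In Sham-HF it was at 41.0, 36.4, 36.4 and 32.1 CPM, and in TAC-HF at 52.0, 51.9, 50.9 and 52.2. All 4 TAC-HF libraries lay above the shams, with an SD of 1.118% of their mean, and the rise was 1.42-fold (log2 0.50 ± 0.08 SE, adjusted p = 0.00057). After running the log2 difference was 0.018 (95% interval -0.23 to 0.27), with 28.8 to 43.8 CPM against 34.3 to 39.8 in Sedentary.

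Timp3 and Timp4 were not called after TAC or running in the main tests, and both varied between libraries of 1 group. Timp3, which binds to the matrix and also inhibits Adam proteases, was at 122, 127, 164 and 116 CPM in Sham-LVH and 146, 183, 115 and 111 in TAC-LVH (log2 0.077, 95% interval -0.27 to 0.43). At 8 weeks it was at 92.9 to 133 CPM in Sham-HF and 111 to 166 in TAC-HF (log2 0.29, 95% interval -0.02 to 0.59, adjusted p = 0.15). The groups overlapped at both times. Without Sham-HF replicate 1, its highest sham library, the 8-week difference was 0.39 with an adjusted p of 0.038.

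Timp4, the member of the family known for its expression in heart muscle, was at 15.4, 13.3, 21.7 and 11.2 CPM in Sham-LVH and at 3.67, 14.8, 6.00 and 4.09 in TAC-LVH. Of the TAC-LVH libraries, 3 lay below all shams and replicate 2 lay among them. The log2 difference was -1.12 ± 0.48 SE with an adjusted p of 0.12, and without TAC-LVH replicate 2 it was -1.75 with an adjusted p of 0.00060. At 8 weeks the level was 16.5 to 22.6 CPM in TAC-HF and 11.6 to 22.2 in Sham-HF (log2 0.20, 95% interval -0.23 to 0.63). The 8-week effect minus the 2-week effect was 1.33 on the log2 scale (adjusted p = 0.21, and 0.030 without TAC-LVH replicate 2).

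Timp3 and Timp4 spread widely among exercise libraries as well. Sedentary replicates 1 and 4 held 169 and 108 CPM of Timp3 and 26.5 and 19.1 of Timp4, while replicates 2 and 3 held 70.6 and 67.1 of Timp3 and 4.96 and 5.48 of Timp4. The same 2 libraries were thus high for both genes. In Running, Timp3 was at 257, 110, 150 and 156 CPM and Timp4 at 24.3, 9.58, 14.3 and 15.6, and replicate 1 was the highest and replicate 2 the lowest for both. The log2 difference between Running and Sedentary was 0.69 for Timp3 (95% interval -0.19 to 1.58) and 0.16 for Timp4 (95% interval -1.32 to 1.64). In the main edgeR fit the adjusted p of Timp3 was 0.9996. With the replicate number as a block in the edgeR fit, Timp3 was called higher in Running (log2 0.73, adjusted p = 0.00325). That fit called 47 genes, and it is not known whether the replicate numbers pair samples.

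Each Timp gene except Timp2 lies inside another gene that is transcribed from the opposite strand (Timp1 in Syn1, Timp3 in Syn3, Timp4 in Syn2 and Gm17482). Timp2 overlaps Cep295nl on the same strand. The strand setting of the counting is not given in the sources used here, so reads from exon bases that opposite-strand genes share may not be told apart. The annotation gives Timp3 1733 exon bases in common with Syn3 and Timp4 90 with Syn2. It gives 0 for Timp1 with Syn1, Timp4 with Gm17482 and Timp2 with Cep295nl. The synapsin genes had few counts, at 0 to 8 per library for Syn1, 15 to 68 for Syn2 and 14 to 96 for Syn3.

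The inhibitors can be set against each other only per length of transcript, here CPM per kilobase of exon. Timp3 and Timp2 were the most abundant, at 12.7 to 20.7 and 9.36 to 16.1 CPM per kilobase as group means. Timp1 was at 0.947 ± 0.501 in Sedentary, 0.892 ± 0.411 in Sham-LVH and 10.3 ± 3.49 in TAC-LVH (SD, n = 4). The order of Timp1 and Timp4 turned over with TAC. Timp4 was above Timp1 in all 16 libraries of the Sedentary, Running and sham groups, and Timp1 was above Timp4 in all 8 TAC libraries.

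As shares of the summed Timp level, Timp1 made up 2.96% ± 1.27 in Sham-LVH and 22.8% ± 5.26 in TAC-LVH, and 3.90% ± 2.32 in Sham-HF and 15.1% ± 3.10 in TAC-HF (SD, n = 4). Timp3 held 54.5% ± 2.26 in Sham-LVH and 38.0% ± 3.94 in TAC-LVH, while its CPM did not pass the test. Timp4 held 8.69% ± 1.63 in Sham-LVH, 2.65% ± 1.602 in TAC-LVH, 11.1% ± 3.41 in Sham-HF and 8.66% ± 0.99 in TAC-HF. The summed level was 29.7 ± 3.69 CPM per kilobase in Sham-LVH, 44.7 ± 7.45 in TAC-LVH, 26.6 ± 3.75 in Sham-HF and 38.6 ± 5.41 in TAC-HF. These shares were not tested.

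**Figure D2:**
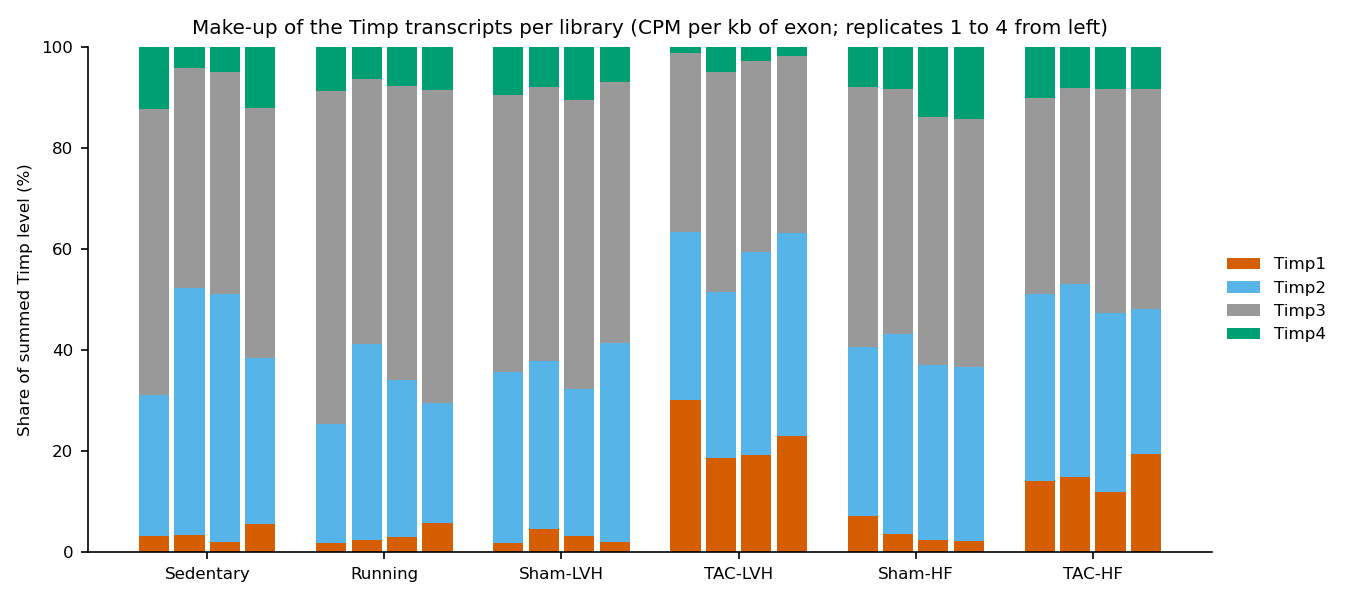
Share of each Timp gene (colours) in the summed Timp level of a library (vertical axis, %, from CPM per kilobase of exon), 1 bar per library. Timp1 spans 18.8% to 30.2% in the 4 TAC-LVH bars and 12.0% to 19.4% in the 4 TAC-HF bars, and 1.85% to 7.28% in the other 16.

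Of the gelatinases, enzymes that cut denatured collagen and the collagen of basement membranes, Mmp2 rose and Mmp9 stayed near the limit of detection. Mmp2 was at 23.3, 23.2, 26.8 and 32.7 CPM in Sham-LVH and at 112, 117, 84.6 and 113 in TAC-LVH. The groups were far apart, with a 4.03-fold rise (log2 2.01 ± 0.14 SE, adjusted p = 1.0e-06). In Sham-HF it was at 24.4, 22.9, 23.4 and 22.1 CPM and in TAC-HF at 51.6, 66.5, 44.5 and 55.4, again without overlap (2.35-fold, log2 1.231 ± 0.11 SE, adjusted p = 4.3e-06). Ordered by mean, TAC-LVH (106 ± 14.7 CPM) and TAC-HF (54.5 ± 9.17) stood above Sham-LVH (26.5 ± 4.46), Sedentary (25.2 ± 2.47), Running (23.7 ± 1.67) and Sham-HF (23.2 ± 0.93), and the ranges of the last 4 overlapped. Running differed from Sedentary by a log2 value of -0.089 (95% interval -0.30 to 0.12).

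Mmp9, a gelatinase typical of neutrophils and macrophages, received 1 to 19 counts per library. It was at 0.108, 0.168, 0.184 and 0.247 CPM in Sham-LVH, 0.140, 0.0379, 0.183 and 0.0560 in TAC-LVH, 0.698, 0.831, 0.301 and 0.360 in Sham-HF and 0.0961, 0.349, 0.247 and 0.250 in TAC-HF. No rise after TAC can be seen in these values. It entered the test for running alone among the main comparisons (log2 -0.10, 95% interval -0.88 to 0.67). In a fit of all 24 libraries its log2 difference was -0.77 at 2 weeks (adjusted p = 0.29) and -1.20 at 8 weeks (adjusted p = 0.030), and at 8 weeks without the low-count filter it was -1.17 (adjusted p = 0.058). The 9 neutrophil markers summed to at most 4.15 CPM in any library, and Ly6g received 1 count over all 24 libraries, in TAC-LVH.

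Mmp3, a stromelysin that cuts matrix proteins and activates other Mmp precursors, was low and variable. It was at 1.29, 4.09, 1.88 and 2.50 CPM in Sham-LVH and 3.98, 3.60, 5.27 and 2.41 in TAC-LVH, overlapping groups (log2 0.69 ± 0.32 SE, adjusted p = 0.13). Sham-LVH replicate 2 was its highest sham, and without it the difference was 1.00 with an adjusted p of 0.023. At 8 weeks it was at 4.84, 2.23, 3.06 and 0.720 CPM in Sham-HF and 3.17, 3.10, 3.54 and 5.53 in TAC-HF (log2 0.48, 95% interval -0.55 to 1.51). Sedentary hearts held 2.53, 2.53, 1.27 and 2.45 CPM and Running hearts 1.42, 1.26, 1.52 and 1.36. The running difference of -0.67 on the log2 scale had an adjusted p of 0.96.

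The membrane-type enzymes moved in different directions. Mmp14, which sits in the cell membrane, cuts fibrillar collagen and activates the Mmp2 precursor, was at 1.87, 2.63, 2.17 and 5.07 CPM in Sham-LVH and 16.9, 9.98, 9.81 and 12.9 in TAC-LVH. Every TAC-LVH library was above every sham library (4.20-fold, log2 2.07 ± 0.31 SE, adjusted p = 0.00066). At 8 weeks it was at 5.30, 5.11, 4.91 and 3.66 CPM in Sham-HF and 8.03, 9.61, 4.81 and 7.57 in TAC-HF. TAC-HF replicate 3 lay within the sham range, and the rise was 1.57-fold (log2 0.65 ± 0.19 SE, adjusted p = 0.021). That call was lost without Sham-HF replicate 4 (0.54, adjusted p = 0.061) and without TAC-HF replicate 1 (0.62, adjusted p = 0.053).

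In Running hearts Mmp14 was at 4.46, 3.90, 3.87 and 3.57 CPM and in Sedentary hearts at 4.90, 6.39, 6.98 and 5.94. It was the 1 member whose Running and Sedentary values did not overlap, which was so, with lower values in Running, for 1.48% of the genes tested. The log2 difference was -0.61 ± 0.14 SE, with an unadjusted p of 0.00072 and an adjusted p of 0.71.

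Mmp15 is also a membrane-type enzyme, and it fell at 8 weeks, where Mmp14 rose. At 8 weeks it was at 26.5, 32.8, 31.5 and 31.0 CPM in Sham-HF and at 15.7, 23.3, 15.9 and 17.2 in TAC-HF. All TAC-HF libraries were below all shams, with a 1.69-fold lower level (log2 -0.76 ± 0.12 SE, adjusted p = 0.00054). At 2 weeks it was at 25.02, 17.4, 17.9 and 24.2 CPM in Sham-LVH and 17.5, 13.1, 16.2 and 18.3 in TAC-LVH, overlapping groups with a log2 difference of -0.37 ± 0.14 SE and an adjusted p of 0.054. That 2-week value passed the threshold with another scaling (RLE, adjusted p = 0.047), with DESeq2 (0.0446), without Sham-LVH replicate 2 (0.026) and without Sham-LVH replicate 3 (0.025). Where only library totals were used, the log2 difference changed sign to 0.052, with an adjusted p of 0.78. In Running it was at 22.4 to 33.3 CPM against 29.2 to 41.6 in Sedentary (log2 -0.40 ± 0.14 SE, adjusted p = 0.99).

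The control levels of Mmp15 also differed between cohorts. Sham-HF hearts held 30.5 ± 2.74 CPM and Sham-LVH hearts 21.1 ± 4.04 (SD, n = 4), without overlap (log2 0.52 ± 0.12 SE, adjusted p = 0.037). It was the 1 member called of 9 tested, where 3.64% of genes were called (2.2% higher, 1.44% lower), and the 1 member without overlap, where 7.23% of genes were higher and 5.68% lower without overlap. This call was lost with library totals (adjusted p = 0.063) and in 5 of 8 fits that each left out 1 library (Sham-LVH replicate 2 or 3, Sham-HF replicate 2, 3 or 4), where adjusted p reached 0.11. TAC-HF (18.0 ± 3.60 CPM) and TAC-LVH (16.3 ± 2.29) had overlapping values.

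Mmp23, a membrane-anchored enzyme with an unusual domain make-up, rose at both times by about the same factor. It was at 2.30, 1.903, 2.91 and 1.66 CPM in Sham-LVH and 6.14, 6.07, 4.47 and 5.60 in TAC-LVH (2.53-fold, log2 1.34 ± 0.17 SE, adjusted p = 7.7e-05). At 8 weeks it was at 1.67, 2.32, 1.703 and 1.62 CPM in Sham-HF and 4.85, 4.07, 3.99 and 4.93 in TAC-HF (2.42-fold, log2 1.27 ± 0.16 SE, adjusted p = 7.9e-05). The groups did not overlap at either time. Running hearts held 2.01 to 2.41 CPM and Sedentary hearts 1.501 to 2.15 (log2 0.21, 95% interval -0.17 to 0.59).

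Among the enzymes, Mmp2 and Mmp15 were the most abundant per length in control hearts. Mmp2 was at 7.86 ± 1.32 CPM per kilobase of exon in Sham-LVH and 31.6 ± 4.37 in TAC-LVH, and Mmp15 at 3.92 ± 0.75 and 3.02 ± 0.42. Mmp14 was at 0.493 ± 0.245 and 2.08 ± 0.559 in the same groups, and Mmp9 at 0.0499 ± 0.0161 and 0.0294 ± 0.0194 (SD, n = 4).

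**Figure D3:**
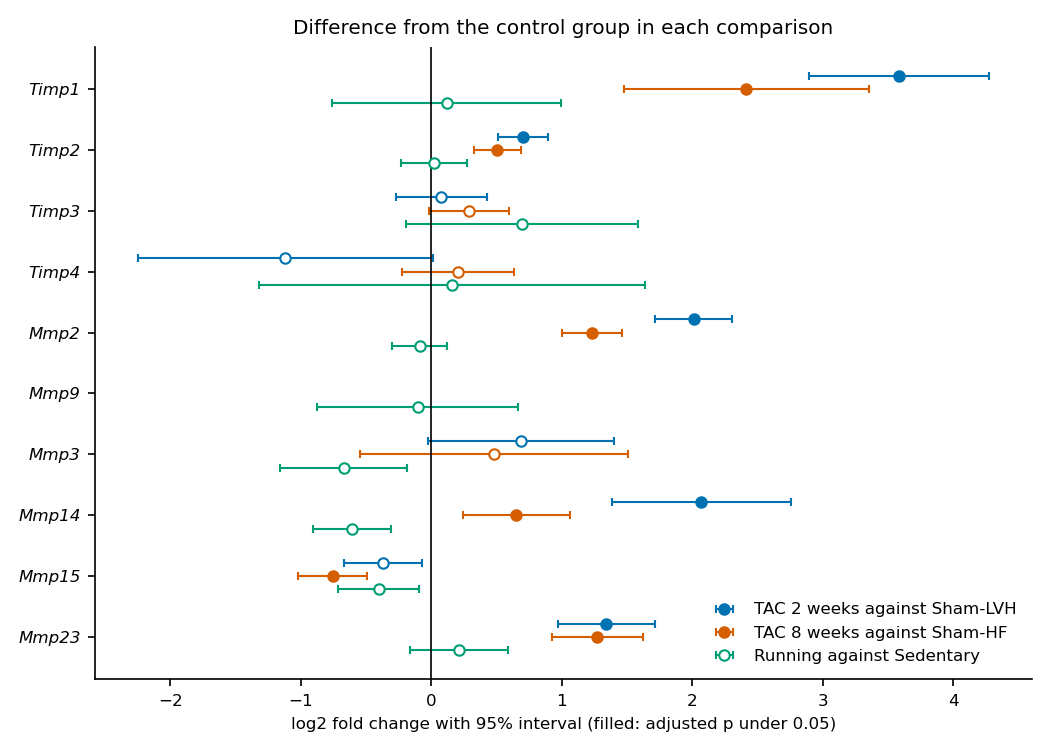
Log2 fold change (horizontal axis) of each gene with its 95% interval in the 2 TAC comparisons and the running comparison, filled where the adjusted p is under 0.05. Timp1, Timp2, Mmp2, Mmp14 and Mmp23 are filled and right of 0 at both TAC times and Mmp15 is filled and left of 0 at 8 weeks, while its 2-week value of -0.37 becomes 0.052 with library totals. No running point is filled, and Mmp9 was tested for running alone.

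The 2 TAC times were compared by testing the difference of their effects. Mmp2 was the 1 member of 9 called, where 1.36% of 14463 genes were called, with an 8-week effect smaller by a log2 value of -0.77 (± 0.18 SE, adjusted p = 0.043). This call was lost in 12 of 16 fits that each left out 1 library (adjusted p up to 0.096), all except those without Sham-LVH replicate 1 or 4, TAC-LVH replicate 3 or TAC-HF replicate 2, and with library totals (adjusted p = 0.089). The difference was -1.41 ± 0.40 SE for Mmp14 (adjusted p = 0.083, and 0.014 without Sham-LVH replicate 4, its highest sham) and -1.16 for Timp1 (95% interval -2.46 to 0.13). For Mmp23 it was -0.063 (95% interval -0.58 to 0.45). Different cohorts make up the 2 times, each with its own shams, and a difference between the shams enters these values. Mean Mmp14 was 4.75 CPM in Sham-HF and 2.94 in Sham-LVH, overlapping groups (log2 0.69, adjusted p = 0.19). Without Sham-LVH replicate 4 this sham difference was called (adjusted p = 0.016). The Mmp14 difference between times, in that fit as well, thus includes a difference of controls.

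The TAC effect was also set against the running effect. At 2 weeks 6 of 10 members had a TAC effect above the running effect, where 9.5% of genes were called higher and 9.56% lower: Timp1 by 3.47, Timp2 by 0.68, Mmp2 by 2.10, Mmp3 by 1.35, Mmp14 by 2.68 and Mmp23 by 1.1304 on the log2 scale. For Mmp3 the adjusted p was 0.033 and was lost in 10 of 16 fits that each left out 1 library (adjusted p up to 0.074), all except those without Sedentary replicate 3, Running replicate 1, Sham-LVH replicate 2 or 4, or TAC-LVH replicate 2 or 4. It was also lost in the fit of all 24 libraries (adjusted p = 0.0953). At 8 weeks 5 of 10 were called higher (5.74% of genes higher and 5.35% lower): Timp1 by 2.32, Timp2 by 0.49, Mmp2 by 1.33, Mmp14 by 1.27 and Mmp23 by 1.07. Timp1 (adjusted p = 0.032) and Timp2 (0.034) lost this call in 9 and 10 of 16 such fits, with adjusted p up to 0.083. The call of Timp1 was kept without Sedentary replicate 2 or 3, Running replicate 4, Sham-HF replicate 1, or TAC-HF replicate 1, 2 or 3. That of Timp2 was kept without Sedentary replicate 3 or 4, Running replicate 1 or 2, Sham-HF replicate 1, or TAC-HF replicate 2. Both differences use the same Running and Sedentary libraries. After running itself, 0 of 10 members and 0 of 13824 genes were called by edgeR, and DESeq2 called 9 genes. An unadjusted edgeR p under 0.05 was seen for 3 members (Mmp3, Mmp14 and Mmp15, all lower) and for 665 of the 13824 genes. Chance alone would give a share of about 0.05 of all genes, and the share seen was not above it. With the replicate number as a block, edgeR called 47 genes and 1 member higher (Timp3).

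The rest of the metalloproteinase system was read from lists of related genes. Each count is to be read beside the shares of all genes tested, 17.1% higher and 16.1% lower at 2 weeks. At 8 weeks these shares were 14.9% and 14.7%. Of 17 other Mmp genes, 6 could be tested at 2 weeks and 2 rose, Mmp16 (log2 0.82) and Mmp28 (0.57), and 0 of 5 were called at 8 weeks. Mmp1a, Mmp1b, Mmp7 and Mmp10 had 0 counts in all libraries. Adam and Adamts genes, relatives that shed membrane proteins or process collagen and proteoglycans, had 16 of 22 higher and 2 lower at 2 weeks and 7 of 21 higher and 2 lower at 8 weeks. Adamts2, which trims procollagen, rose at both times (log2 2.13 and 1.396), as did Adam12 (2.32 and 1.205) and Adamts8 (2.39 and 2.26). Adamts12 rose at 2 weeks (1.99, and 0.20 at 8 weeks, not called), and Adamts7 fell (-0.93 and -1.71).

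Of the genes that activate the precursors, 2 of 10 tested rose and 2 fell at 2 weeks, close to the shares of all genes tested (17.1% higher, 16.1% lower). At 8 weeks 2 of 9 rose and 1 fell, where 14.9% of all genes were higher and 14.7% lower. Plat, the tissue plasminogen activator, rose (log2 0.96 and 0.76), as did the proprotein convertase Pcsk5 (1.04 and 0.84). Furin, the convertase that cuts the Mmp14 precursor, fell at both times (-0.40 and -0.52), and Bsg, a cell-surface inducer of metalloproteinases, fell at 2 weeks (-0.61) with a value of 0.10 at 8 weeks.

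Other protease inhibitors and modulators had 7 of 9 tested genes higher and 2 lower at 2 weeks, and 5 of 8 higher and 1 lower at 8 weeks. Pcolce, an enhancer of procollagen processing, rose (log2 1.234 and 1.1498), as did Serpine2 (1.296 and 0.74) and Reck (0.49 and 0.44), a membrane-anchored inhibitor of metalloproteinases. Spock2 fell at both times (-0.75 and -0.71). Receptors that bind or clear the enzymes had 7 of 8 higher at 2 weeks and 5 of 8 at 8 weeks, among them Mrc2, a collagen uptake receptor (1.396 and 1.112), Lrp1 (0.91 and 0.80) and Cd44 (1.1598 and 0.84). Cathepsins, proteases of the lysosome, had 5 of 11 higher and 1 lower at 2 weeks and 8 of 11 higher at 8 weeks, among them Ctsk (1.89 and 1.69) and Ctsz (0.90 and 0.95).

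Of these 8 lists, the matrix substrates had the highest median fold change at both times. Of 22 tested, 21 rose at 2 weeks and 17 rose and 1 fell at 8 weeks, with median log2 fold changes of 1.66 and 0.77. Col3a1, a fibrillar collagen, rose by 2.98 and 1.43, Col5a2 by 2.89 and 1.76, and Col4a1, of the basement membrane, by 1.62 and 0.80. Of 20 tested inducers of Mmp and Timp genes 13 rose at 2 weeks, and of 19 at 8 weeks 6 rose, including Tgfb3 (1.63 and 1.198), Runx1 (1.82 and 0.96) and Tgfb2 (1.603 and 1.222). None of these 8 lists had a called gene after running, where 0 of all 13824 genes tested were called.

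**Figure D4:**
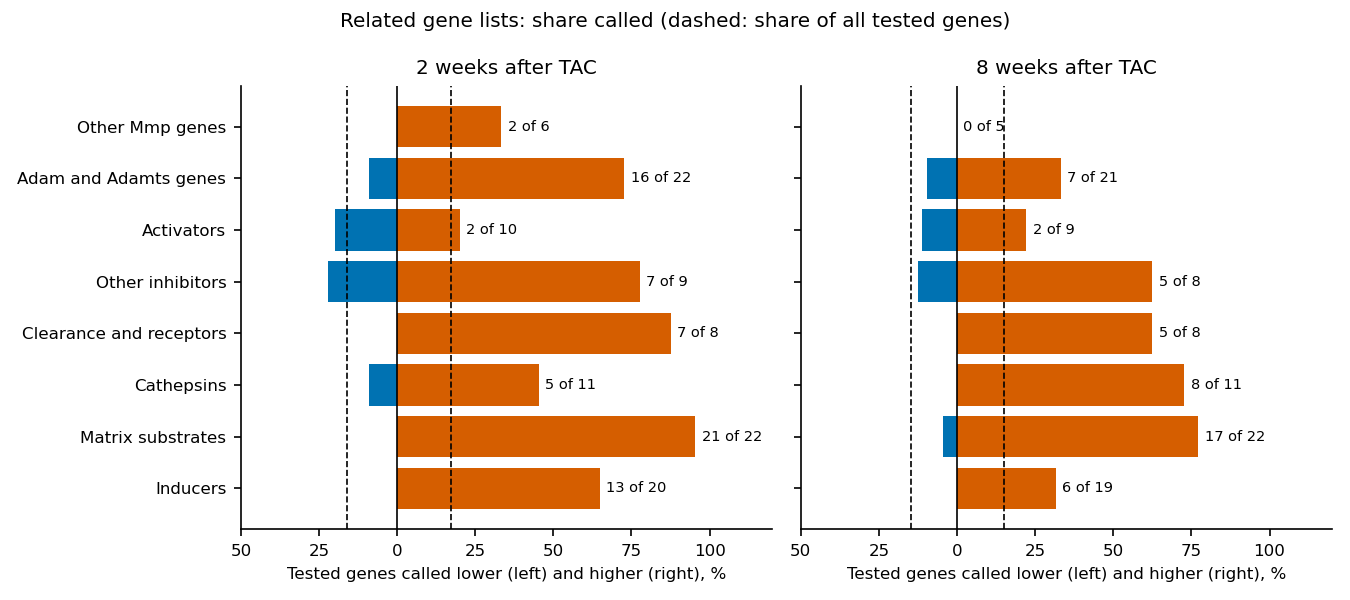
Share of the tested genes of each list (horizontal axis, %) called higher (right, orange, with counts) and lower (left, blue) at each TAC time, with dashed lines at the shares of all genes tested (17.1% and 16.1% at 2 weeks, 14.9% and 14.7% at 8 weeks). Matrix substrates reach 21 of 22 higher at 2 weeks and 17 of 22 at 8 weeks.

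Markers of fibroblasts and macrophages were higher in the same TAC hearts. Of all genes tested, 17.1% were called higher and 16.1% lower at 2 weeks, and 14.9% and 14.7% at 8 weeks. Of 13 fibroblast markers 10 rose and 1 fell at 2 weeks, and 9 rose and 1 fell at 8 weeks. Their summed level was 1752 to 2093 CPM in TAC-LVH against 959 to 1217 in Sham-LVH, and 1348 to 1566 in TAC-HF against 819 to 1103 in Sham-HF. Of the 10 activated fibroblast markers 9 rose at 2 weeks and 8 of 9 tested at 8 weeks, with sums of 706 to 1231 against 79.8 to 116 CPM and 428 to 806 against 57.9 to 114. Of 12 macrophage markers 11 rose at 2 weeks and 10 at 8 weeks, with sums of 313 to 410 against 162 to 251 CPM and 200 to 301 against 122 to 180. Cardiomyocyte markers had 8 of 9 lower at 2 weeks and 4 lower and 1 higher at 8 weeks. Some genes stand in more than 1 list, such as Dcn, Col1a1 and Col1a2, which are also counted among the substrates. No fibroblast, activated fibroblast, macrophage or cardiomyocyte marker was at 0 in any group. The part of these cell types in the changes of the Mmp and Timp genes was not tested.

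Of the other marker lists, 5 of 9 endothelial markers rose at 2 weeks and 0 at 8 weeks, and 5 of 10 smooth muscle and pericyte markers rose and 1 fell at 2 weeks. At 8 weeks 3 of these 10 rose and 1 fell. The shares of all genes tested were 17.1% higher and 16.1% lower at 2 weeks, and 14.9% and 14.7% at 8 weeks. Neutrophil and epicardial markers had 0 called at either time, of 2 and 1 tested at 2 weeks and 1 and 1 at 8 weeks.

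For each member the genes with the most similar profile were sought among 7641 other genes with a mean of at least 5 CPM, as the smallest root mean square difference of centred log2 levels over the 24 libraries. These libraries share the TAC effect, so a small difference describes these samples alone. Mmp2 was nearest to Sparc, a collagen-binding protein (0.17, where its own spread was 0.83), Adamts2 and Igsf10. Mmp14 was nearest to 3 collagen genes, Col15a1 (0.29), Col6a2 and Col6a3, and Timp1 to Mfap5 (0.45), Lox, which cross-links collagen, and Comp. Mmp23 was nearest to Rcn3, Lpar1 and F2r, and Timp2 to C1s1, Rap1b and Spred1.

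The members that were not raised by TAC had other neighbours. Timp3 was nearest to Slc43a3 (0.20, own spread 0.42), B4galt4 and Clec1a, and Timp4 to Zbtb16 (0.45, own spread 0.82), Ifi205 and Mcf2l. Mmp15 was nearest to Prrc2b (0.17), Gdpd5 and Map7d1. Mmp3 was nearest to C4b (0.44, own spread 0.71), Fcgr3 and Mex3c, and Mmp9 to Slc7a1 (0.38, own spread 0.69), Slc38a3 and Tmcc2.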

How the data were processed

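Heart RNA was extracted with Trizol, depleted of ribosomal RNA and made into 24 libraries with an NEB kit, per the labels' protocols. The authors deposited estimated counts per gene, written as whole numbers and not normalized. FastQC, Salmon and the build mm9 are named per the submitters' processing notes. Versions, annotation and strand setting were not given in the sources used here. Symbols came from a GENCODE annotation of GRCm38 (42462 of 43432 identifiers), and gene coordinates are not given because the builds differ. 1 row that names no gene held 0 counts and was left out.

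The members, the gene lists and the tests were chosen with earlier results of these data known. All 10 members are named. From each list up to 4 called genes with the smallest p at 2 weeks and up to 2 more at 8 weeks could be named, and 3 nearest genes per member.

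The test was that of edgeR 4.0.16 under R 4.3.3 (low-count filter filterByExpr, TMM, robust quasi-likelihood fit, two-sided test), each comparison on its own 8 libraries and each difference of effects as a contrast over 16. CPM used TMM over 24 libraries, and profiles log2(CPM + 0.1). Scripts were tested on simulated data. Alternatives were RLE size factors, library totals, removal of mitochondrial genes, no low-count filter, DESeq2 1.42.0, all 24 libraries, the replicate number as a block, and each library left out. Another gene length for the Timp shares, and Mmp9 in fits where it passes, were added after seeing the data. Replicate numbers were not used as pairs in the main tests, and no 2 libraries were identical.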

Additional observations from a re-analysis of the deposited data

Results flagged for a closer look

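In 5 of 60 sets of 4 values (10 genes in 6 groups), 1 library stood apart from the other 3 by more than the critical value of Dixon's test, where chance gives about 1 in 20. These were Timp1 in Sham-HF replicate 1 (2.05 CPM, others 0.480 to 0.743) and in TAC-HF replicate 4 (8.03 CPM, others 3.95 to 4.61), Mmp2 in TAC-LVH replicate 3 (84.6 CPM, others 112 to 117), Mmp3 in Sedentary replicate 3 (1.27 CPM, others 2.45 to 2.53) and Mmp23 in Sham-HF replicate 2 (2.32 CPM, others 1.62 to 1.703).

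The effect of TAC on Mmp2 differed between 8 and 2 weeks by -0.77 on the log2 scale. The 2-week TAC effect and the running effect differed by 3.47 for Timp1, 0.68 for Timp2, 2.10 for Mmp2, 1.35 for Mmp3, 2.68 for Mmp14 and 1.1304 for Mmp23. The 8-week TAC effect and the running effect differed by 2.32 for Timp1, 0.49 for Timp2, 1.33 for Mmp2, 1.27 for Mmp14 and 1.07 for Mmp23. Each of these differences passed the edgeR test of the difference itself with all libraries of the comparison. Of 16 fits that each left out 1 library, the Mmp2 call between times was lost in 12. The Mmp3 call against running at 2 weeks was lost in 10. At 8 weeks the calls of Timp1 and Timp2 against running were lost in 9 and 10.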

How the results depend on the processing

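The 11 called TAC results of single members kept direction and call in all 77 fits with other settings and in 86 of 88 fits that left out 1 library, and the other 2 (Mmp14 at 8 weeks) kept direction. Scaling to library totals moved the median of all genes by 0.41 at 2 weeks, 0.33 at 8 weeks and -0.07 after running. It gave 7609 called genes at 2 weeks, 6643 at 8 weeks, 30 for the difference of times (0 members lower), 4720 and 3198 for the 2-week and 8-week TAC effects against running, and 0 members higher between shams. Under it Mmp15 was 0.052 at 2 weeks and 0.070 for the 8-week effect minus running, Timp2 was -0.043 after running, and Timp3 was called higher at both times (0.49 and 0.61), Mmp3 at 2 weeks (1.08) and Timp4 at 8 weeks (0.54). At 2 weeks 1 member (Mmp15) was called lower with RLE factors, no low-count filter or DESeq2. The fit of all 24 libraries gave 2 members lower at 8 weeks (Mmp9 added), 2 lower for the difference of times (Mmp14 added) and 2 higher between shams (Mmp9 added), and Mmp3 lost its call for the 2-week effect minus running. DESeq2 gave 9 genes after running, 626 and 2 members lower (Mmp14 added) for the difference of times, and 876 between shams, and without the low-count filter running gave 2 genes.

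With the replicate block, running gave 47 genes and 1 member higher (Timp3, 0.73, adjusted p = 0.00325), 1 member (Mmp15) was lower at 2 weeks, the difference of times gave 461 genes, the shams gave 0 members higher, Timp4 was -0.082 for the 8-week effect minus running, and Mmp3 lost its call for the 2-week effect minus running (adjusted p = 0.051). Same-numbered libraries deviated together with correlations of -0.01 to 0.21 (2 weeks), -0.23 to 0.09 (8 weeks) and 0.04 to 0.40 (running). In each comparison 2 of 4 numbers correlated best with their own. These values do not settle whether the numbers pair samples, least of all for running, and the main tests did not use them as pairs.

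Leaving out 1 library gave 5 to 6 members higher and 0 to 1 lower at 2 weeks (3923 to 4575 genes), 4 to 6 higher and 1 lower at 8 weeks (2984 to 4204 genes), 0 to 3 genes after running, 0 to 1 higher and 0 to 2 lower for the difference of times (22 to 654 genes), 3 to 6 higher for the 8-week effect minus running, and 0 to 2 higher between shams (57 to 1081 genes). Values that crossed 0 were Timp3 at 2 weeks (-0.088 to 0.20), after running Timp1 (-0.23 to 0.37), Timp2 (-0.063 to 0.12) and Timp4 (-0.12 to 0.72), for the difference of times Mmp3 (-0.51 to 0.23) and Mmp23 (-0.24 to 0.087), against running Mmp15 at 2 weeks (-0.055 to 0.14) and Timp4 at 8 weeks (-0.50 to 0.33), and between shams Timp1 (-0.33 to 0.57), Timp4 (-0.0046 to 0.36) and Mmp3 (-0.22 to 0.54).

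With the length of the longest coding transcript, Timp shares moved to 11.5% for Timp1 in TAC-HF. Timp2 moved to 21.3% (Running), 25.1% (Sham-LVH), 29.7% (TAC-LVH), 26.9% (Sham-HF) and 27.7% (TAC-HF). Timp3 moved to 60.5% (Sedentary), 70.7% (Running), 66.3% (Sham-LVH), 50.4% (TAC-LVH), 61.7% (Sham-HF) and 53.9% (TAC-HF), and Timp4 to 5.74% (Running), 6.56% (Sham-LVH) and 7.02% (TAC-HF). The order of Timp1 and Timp4 stayed in all 24 libraries. The cause of these changes was not tested beyond the setting itself. Few counts limit Mmp9 (1 to 19 per library), and 4 libraries per group limit all.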
